A study of Homo sapiens with 39 samples.

Results

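The transcriptional response to GDC-SAR, an estrogen receptor ligand, was read against vehicle with both doses pooled. The 6 GDC-SAR libraries (3 at 30 nM and 3 at 300 nM) and the 3 DMSO libraries were taken by their labels, 9 of the 39 libraries of the series. All came from HCC1428-LTED cells, an established human breast cancer line that expresses the estrogen receptor and has been kept long term without estrogen. Both groups grew in IMEM with charcoal-stripped serum, which holds little steroid, and were exposed for 24 hours to the compound or to DMSO alone, so the controls shared the estrogen deprivation. By its name GDC-SAR is taken throughout as a hybrid of the GDC-0810 scaffold with the side chain of SAR439859. AZD-SAR is likewise taken as a hybrid of the AZD9496 scaffold with the same side chain. The sample labels give names and doses, not structures. GDC-0810, SAR439859 and AZD-SAR were measured at the same doses and time, 6 libraries each, and served for comparison. Stranded libraries were made from total RNA, and the table gives each gene in TPM, a share of each library's transcripts corrected for their length. The labels do not say whether libraries came from separate cultures, and the series text speaks of duplicates while 3 libraries carry each label. The p-values therefore measure the spread between these libraries, which may be technical. Results come from 1 cell line.

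The estrogen receptor, encoded by ESR1, is a nuclear receptor that binds estradiol and then DNA, often together with the pioneer factor FOXA1 and with GATA3, and recruits coactivators to its target genes. In luminal breast cancer cells these targets include PGR, GREB1 and TFF1, and the growth genes MYC and CCND1, through which the receptor drives entry into S phase. Receptor degraders and antagonists hold the receptor in an inactive shape, and many of them also lower its protein. A transcript level says nothing of the receptor protein, and no protein was measured here.

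The cells carried the markers of their label. The summed level of 8 luminal epithelial markers was 6545 to 7403 TPM with DMSO and 8639 to 10857 TPM with GDC-SAR. Its members did not move together. GATA3, CDH1 and FOXA1 were higher in every GDC-SAR library, KRT18 and KRT19 were lower in every one, and KRT8, EPCAM and ESR1 overlapped with DMSO. The sum of 6 basal and mesenchymal markers stayed at or below 4.17 TPM in all 9 libraries. The sum of 8 stromal, endothelial and immune markers was 14.3 to 17.6 TPM with DMSO and 19.1 to 30.9 TPM with GDC-SAR, and most of it was CD68 and COL1A1. RNA composition differed between the groups. The small noncoding RNAs RN7SL1, RMRP and RPPH1 together took 17.7 to 20.4% of all TPM in the DMSO libraries and 3.61 to 9.82% in the GDC-SAR libraries (exact two-sided permutation p = 0.0119, the smallest that 6 against 3 libraries allow). The small nucleolar RNA SNORA76C moved the other way, from 4.56 to 6.24% with DMSO to 9.58 to 16.3% with GDC-SAR (exact p = 0.0119), as did the nuclear RNA MALAT1, from 6.73 to 7.84% to 8.09 to 10.6% (exact p = 0.0238). RN7SL1, RMRP and RPPH1 took 2.57 to 13.9% in the 30 libraries of other ligands, so DMSO stood apart from every treated library in this share. The DMSO libraries also carry lower library numbers in their labels than every treated library. What these numbers stand for is not given, and their part cannot be told apart from that of treatment. GDC-SAR 300 nM replicate 3 stood nearest to DMSO, with 40311 TPM of RN7SL1 where the other 5 GDC-SAR libraries held 7878 to 14389. Libraries listed 20708 to 22786 genes above 0 with DMSO and 21664 to 25559 with GDC-SAR (exact p = 0.179). Because such a share could move every other gene, most counts against DMSO are given also from a fit that holds the log2 level of RN7SL1 as a covariate, called the composition fit here. Since RN7SL1 moved with the treatment, the part of composition in the results of the plain fit and the part of treatment cannot be fully told apart.

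Of 14404 genes whose TPM averaged 1 or more across the 39 libraries, 4040 (28%) differed between GDC-SAR and DMSO at an adjusted p below 0.05. They were split between 2046 that rose (14.2%) and 1994 that fell (13.8%), and the median difference over all tested genes was 0.047 on the log2(TPM + 1) scale. In 4841 genes (33.6%) the 6 treated and 3 control libraries did not overlap, with 2464 (17.1%) wholly above and 2377 (16.5%) wholly below. The composition fit called 2232 genes (15.5%), 986 higher (6.85%) and 1246 lower (8.65%). It shared 1750 calls with the plain fit, all in the same direction. These shares of all genes are the background for every list count below. Differences are log2 of GDC-SAR over DMSO on values plus 1 TPM, which understates changes of genes below a few TPM, and come from limma with Benjamini-Hochberg adjustment over all tested genes. In RNA from whole cultures, fewer cells that express a gene and less RNA per cell cannot be told apart.

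Genes that estradiol induces in breast cancer cells moved almost wholly downward. Of 51 genes on that list 46 were tested, 39 fell, none rose and 7 were not called, with a median difference of -1.16. In the composition fit 38 fell and 1, AGR2, a secretory-pathway disulfide isomerase gene, was higher (0.79, adjusted p = 0.02, against 0.14 and 0.724 in the plain fit). ESR1 itself did not pass the test. It stood at 409, 459 and 439 TPM in the 3 DMSO libraries and from 315 to 428 TPM with a median of 357 in the 6 GDC-SAR libraries, which overlapped, a difference of -0.28 (SE 0.14, adjusted p = 0.128).

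Among genes that reached 5 TPM in either group and whose libraries did not overlap, IL20 fell most. It encodes a cytokine of the interleukin-10 family (chromosome 1, 206865354 to 206869223, plus strand, GRCh38). Its level was 66.6, 68.5 and 67.4 TPM with DMSO and from 1.58 to 4.43 TPM with a median of 1.76 with GDC-SAR. All 6 treated libraries lay far below all 3 controls, and the gene fell by 4.41 (SE 0.28, adjusted p = 7.28e-13). The zinc-finger transcription factor gene EGR3 held 29.7, 27.2 and 20.3 TPM with DMSO, and GDC-SAR left it from 0.0507 to 1.14 TPM with a median of 0.313. It fell by 4.25 (SE 0.23, adjusted p = 4.18e-14). KRT13, a keratin of stratified epithelia (chromosome 17, 41500981 to 41505705, minus strand), went from 52.0, 45.6 and 42.7 TPM to a range from 1.0 to 5.84 TPM with a median of 3.0. Its difference was -3.64 (SE 0.30, adjusted p = 2.20e-10). The lack of overlap in these genes follows from the rule that ranked them.

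The textbook targets of the receptor followed the same course. GREB1, a coactivator of the receptor and its classic early target (chromosome 2, 11482341 to 11642788, plus strand), was at 20.7, 20.6 and 17.9 TPM in the controls and from 0.764 to 2.12 TPM with a median of 1.22 under GDC-SAR, and fell by 3.18 (SE 0.22, adjusted p = 6.62e-12). PGR, the progesterone receptor gene, was at 31.3, 47.0 and 29.2 TPM and then from 2.65 to 4.22 TPM with a median of 3.31, and fell by 3.07 (SE 0.18, adjusted p = 1.06e-13). For both genes every treated library lay under every control. TFF1, a secreted trefoil peptide gene (chromosome 21, 42362282 to 42366594, minus strand), began higher, at 3471, 2986 and 2262 TPM, and stayed at readable levels from 522 to 813 TPM with a median of 715, with a difference of -2.03 (SE 0.17, adjusted p = 2.47e-10).

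Noncoding and secreted members fell alongside. LINC01016, a long noncoding RNA of estrogen-responsive tissue, stood at 19.8, 16 and 16.7 TPM with DMSO and at 0.479 to 1.92 TPM with GDC-SAR (-3.14, SE 0.35, adjusted p = 4.86e-08). DSCAM-AS1, a long noncoding RNA of luminal breast cancer, went from 123, 112 and 111 TPM to 23.1 to 29 TPM and fell by 2.06 (SE 0.084, adjusted p = 5.56e-17). Its 6 treated libraries lay close together and well under the controls. IL17RB, a receptor chain for interleukin-25, fell by 2.42, the stanniocalcin hormone genes STC2 and STC1 fell (-2.15 and -1.83), and the fatty acid elongase gene ELOVL2 fell by 2.26. The small heat shock gene HSPB8 fell by 1.80, the receptor tyrosine kinase gene RET fell by 1.46, and IGFBP4, which binds insulin-like growth factors, fell by 1.39. MYBL1, a MYB-family factor, fell by 1.18, and SLC39A6, a zinc transporter, fell by 0.86. XBP1, a transcription factor of the unfolded protein response, was among the smallest falls at -0.46 (SE 0.13, adjusted p = 0.00795), and that call was lost without DMSO replicate 1 (-0.38, adjusted p = 0.0657). The 7 members that were not called were MYB (-0.55), OLFM1 (-0.46), NRIP1 (-0.40), ABCA3 (-0.26), AGR2, TFF3 (0.14) and CA12 (0.17).

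**Figure D1:**
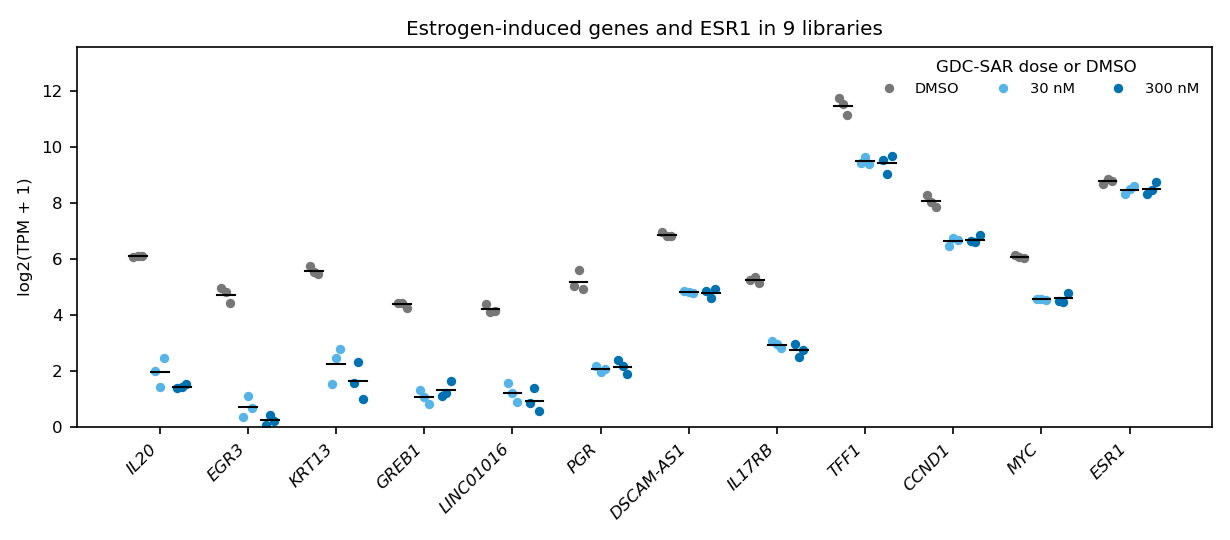
Levels of 12 genes as log2(TPM + 1) in each of the 9 libraries, with DMSO in grey, 30 nM GDC-SAR in light blue and 300 nM GDC-SAR in dark blue. Points are libraries and bars are group means, and in every gene but ESR1 both GDC-SAR groups lie below all 3 DMSO points (IL20 66.6 to 68.5 TPM with DMSO and 1.58 to 4.43 TPM with GDC-SAR).

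The receptor's growth targets fell less steeply and were also free of overlap. CCND1, which encodes cyclin D1 (chromosome 11, 69641087 to 69654474, plus strand), was at 309, 260.4 and 231 TPM with DMSO and from 88.1 to 113 TPM with a median of 99.3 with GDC-SAR, and fell by 1.39 (SE 0.13, adjusted p = 3.51e-09). MYC, the growth-promoting transcription factor gene, was at 68.6, 65.5 and 63.8 TPM and from 21.2 to 26.6 TPM with a median of 22.5, and fell by 1.49 (SE 0.12, adjusted p = 6.11e-11). Its highest treated value was that of 300 nM replicate 3, still well below the lowest control. Among 20 listed G1 cyclins, their kinases and inhibitors, 18 were tested, 9 fell and 2 rose (composition fit 1 higher and 8 lower), with a median of -0.52. CCNE2, a cyclin E that starts S phase with CDK2, fell by 2.13 (SE 0.26, adjusted p = 2.92e-07), the phosphatase gene CDC25A fell by 1.63 and the cyclin D kinase gene CDK4 fell by 1.35. CDKN1A, which encodes the inhibitor p21, fell by 1.31 (SE 0.18, adjusted p = 1.52e-06), from 10.8, 12.1 and 12.6 TPM to 3.18 to 5.57 TPM. The members that rose were CCNG2, an atypical cyclin linked to cell cycle arrest (1.27), and CCNG1, a p53 target (0.90), and the CCNG1 call was lost in the composition fit (0.13, adjusted p = 0.754).

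E2F factors, which switch on genes of DNA replication once cyclin kinases release them from RB1, were counted with the pocket proteins. Of 18 E2F and pocket protein genes 11 fell and 2 rose, with a median of -0.75 (composition fit 1 higher and 10 lower). E2F1 read 22.1, 22.1 and 22.1 TPM in the 3 DMSO libraries and from 4.38 to 6.19 TPM with a median of 5.74 in the GDC-SAR libraries. The controls were nearly identical, all treated libraries lay far below them, and the gene fell by 1.84 (SE 0.12, adjusted p = 2.62e-12). E2F2 fell by 1.51, the repressive E2F8 fell by 1.09 and MYBL2, a B-MYB factor that acts in G2, fell by 1.07. RB1 itself was not called (0.20, adjusted p = 0.294). RBL2, which encodes the pocket protein p130 of resting cells, rose by 1.18 (SE 0.23, adjusted p = 2.37e-04) from 13.5, 11.9 and 12.1 TPM to 18.5 to 36.0 TPM, while its relative RBL1, p107, fell by 0.93. The other rise, of E2F5, was lost in the composition fit (0.47, adjusted p = 0.328) and without DMSO replicate 2 or 3 (adjusted p = 0.0898 and 0.169).

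Promoter sequences are shown for 8 genes because the 2 motifs they carry occur in different gene lists. They are RefSeq windows on GRCh38.p14, read 5′ to 3′ on the gene's strand and ending at the listed start of transcription, with the motif in capitals. The E2F motif was searched as TTTGGCGC and TTCCCGCC and the CHR, a cell cycle element of late cell cycle genes, as TTTGAA, on both strands. The forms differ in letters, and a window or gene with both E2F forms counts once. CDT1 and SPC25 show TTCCCGCC as its reverse complement. PLK1, whose RNA was not called, is shown for its CHR, and CDK1 is shown at its other listed start.
E2F1 (chr20:33686386-33686495, minus strand): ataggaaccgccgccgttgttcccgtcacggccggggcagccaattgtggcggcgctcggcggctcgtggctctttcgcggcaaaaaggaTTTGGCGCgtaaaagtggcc
E2F2 (chr1:23531234-23531343, minus strand): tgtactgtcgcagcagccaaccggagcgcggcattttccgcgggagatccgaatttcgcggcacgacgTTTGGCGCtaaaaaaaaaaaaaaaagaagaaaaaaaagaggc
CDC25A (chr3:48188418-48188527, minus strand): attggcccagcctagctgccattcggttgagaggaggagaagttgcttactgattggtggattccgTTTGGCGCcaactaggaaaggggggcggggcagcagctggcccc
MCM6 (chr2:135876444-135876613, minus strand): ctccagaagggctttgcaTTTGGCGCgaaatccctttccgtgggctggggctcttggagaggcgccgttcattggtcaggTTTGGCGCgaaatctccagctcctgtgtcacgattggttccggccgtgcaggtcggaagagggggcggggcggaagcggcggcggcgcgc
CDT1 (chr16:88803679-88803788, plus strand): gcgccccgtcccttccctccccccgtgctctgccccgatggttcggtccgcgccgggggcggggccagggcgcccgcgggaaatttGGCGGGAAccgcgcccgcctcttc
SPC25 (chr2:168890431-168890540, minus strand): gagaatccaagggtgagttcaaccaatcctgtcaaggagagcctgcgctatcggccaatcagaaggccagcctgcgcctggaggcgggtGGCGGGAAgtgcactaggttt
CDK1 (chr10:60778368-60778477, plus strand): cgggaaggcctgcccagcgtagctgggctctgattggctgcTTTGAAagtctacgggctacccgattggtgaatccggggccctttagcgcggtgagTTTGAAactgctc
PLK1 (chr16:23678779-23678888, plus strand): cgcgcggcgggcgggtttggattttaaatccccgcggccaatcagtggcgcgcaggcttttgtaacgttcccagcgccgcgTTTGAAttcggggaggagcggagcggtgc

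An E2F form lay within the 300-base window (250 before to 50 after the start) of 20 of 48 replication genes with a window (41.7%), and of 10 of 32 homologous recombination genes (31.2%). Lists in which a minority fell held it too, with 5 of 18 p53 targets (27.8%), 4 of 17 fatty acid genes (23.5%) and 6 of 32 proteasome genes (18.8%). It lay by 0 of 39 ribosome assembly genes, a list with many falls. Over all 35116 windows, counted singly, the share was 3.78%. A gene counted once if any of its windows held the motif, so shares of genes and of windows differ in unit. Among tested genes it was 10.8% of those that fell (162 of 1505), 7.65% of those not called (507 of 6630) and 5.24% of those that rose (74 of 1413). The CHR showed another pattern. It lay by 33 of 47 mitosis genes with a window (70.2%) and 2 of 48 such replication genes (4.17%). It also lay by 6 of 15 amino acid transporter genes (40%) and 6 of 16 E2F and pocket protein genes (37.5%). Its share was 13.1% of tested genes that fell, 13.9% of those that rose and 13.1% of those not called. Among all single windows it was 15.2%. The estrogen response element, GGTCA, any 3 bases and TGACC, was found in 0.057% of all windows and by 0 of 31 estrogen-induced genes with a window. These are matches of letters in a short window next to the start, not measured binding. Matches to GCGTG, the core of the XRE, and to the AP-1, CRE and SRE elements were also counted and are not reported here.

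Genes that license and copy DNA fell in most cases. Of 55 replication genes 42 fell and 1 rose, with a median of -1.04. In the composition fit 40 fell and none rose. CDT1, which loads the MCM helicase at origins, was at 27.2, 17.1 and 25.2 TPM with DMSO and from 2.72 to 4.47 TPM with a median of 3.69 with GDC-SAR, and fell by 2.36 (SE 0.23, adjusted p = 4.55e-09). Its loading partner CDC6 fell by 2.21, GINS4 of the active helicase fell by 2.16, the DNA methylation maintenance gene UHRF1 fell by 2.07 and RFC5, a subunit of the clamp loader, fell by 1.99. All 6 subunit genes of the helicase fell, a group chosen after its values were seen. The differences were -1.58 for MCM2, -1.64 for MCM3, -1.97 for MCM5, -1.96 for MCM6 and -1.89 for MCM7, and MCM4 fell by 0.48 (SE 0.11, adjusted p = 0.00187). MCM6, whose window above carries TTTGGCGC at 2 places, was at 25.9, 24.0 and 23.2 TPM with DMSO and at 4.79 to 6.41 TPM with GDC-SAR. RFC1 was the member that rose (0.87, SE 0.24, adjusted p = 0.00682), and its call was lost in the composition fit (0.42, adjusted p = 0.3) and without DMSO replicate 1 (adjusted p = 0.0825).

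DNA repair by homologous recombination and the Fanconi pathway followed replication. Of 37 genes 23 fell and none rose (median -0.73, composition fit 0 higher and 21 lower). BRCA1, a tumour suppressor of break repair, was at 41.7, 45.2 and 44.2 TPM with DMSO and from 10.7 to 16.3 TPM with a median of 12.7 with GDC-SAR with no overlap, and fell by 1.66 (SE 0.21, adjusted p = 7.43e-07). The exonuclease gene EXO1 fell by 1.64, the recombination motor gene RAD54L fell by 1.56, the helicase gene BLM fell by 1.41 and XRCC2 fell by 1.38. Of 33 tested genes of nucleotide synthesis 13 fell and 4 rose (composition fit 2 higher and 9 lower). RRM2, the S-phase subunit of ribonucleotide reductase, fell by 1.77 (SE 0.20, adjusted p = 5.48e-08) from 172, 158 and 159 TPM to 35.4 to 61.2 TPM. TYMS and TK1, which make thymidine nucleotides, fell as well (-1.39 and -1.07). The rises were those of CTPS2 (1.98), a CTP synthase, ATIC (0.91), a purine enzyme, TK2 (0.75), the mitochondrial thymidine kinase, and ADSS (0.51), and the last pair lost their calls in the composition fit (0.79, adjusted p = 0.0518, and 0.35, adjusted p = 0.0596). TK2 also lost its call without DMSO replicate 2 or 3 (adjusted p = 0.111 and 0.0597).

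Replication-dependent histones, made in S phase to pack new DNA, fell in 35 of 39 tested genes (52 listed), none rose, and the median of -1.43 was the lowest of the 36 lists (composition fit 0 higher and 31 lower). HIST1H1B, a linker histone gene, was at 379.5, 364 and 380.4 TPM with DMSO and 54.4 to 81.4 TPM with GDC-SAR (-2.58, SE 0.26, adjusted p = 9.01e-09), and HIST1H1D, another linker histone gene, fell by 2.42. Values of single histone genes are uncertain, since the copies are nearly alike and reads can be assigned to the wrong one. The list of 57 mitosis and kinetochore genes (56 tested) moved less evenly. In it 28 fell and none rose, with a median of -0.47, and the composition fit called 34 lower. CDK1, the mitotic kinase, was at 286, 366 and 342 TPM with DMSO and from 65.1 to 89.1 TPM with a median of 75.4 with GDC-SAR, and fell by 2.10 (SE 0.30, adjusted p = 3.44e-06). SPC25, a kinetochore subunit, fell by 1.62, the cohesin protector gene CDCA5 fell by 1.61 and AURKB, the kinase of the chromosomal passenger complex, fell by 1.56. CCNB1, the cyclin of CDK1 (0.37, adjusted p = 0.322), and PLK1 (-0.20, adjusted p = 0.122) were not called. MKI67, the proliferation antigen gene, was at 59.7, 55.4 and 53.3 TPM and 41.5 to 51.7 TPM and was not called either (-0.24, SE 0.14, adjusted p = 0.192), although the composition fit called it lower (-0.66, adjusted p = 4.79e-06).

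**Figure D2:**
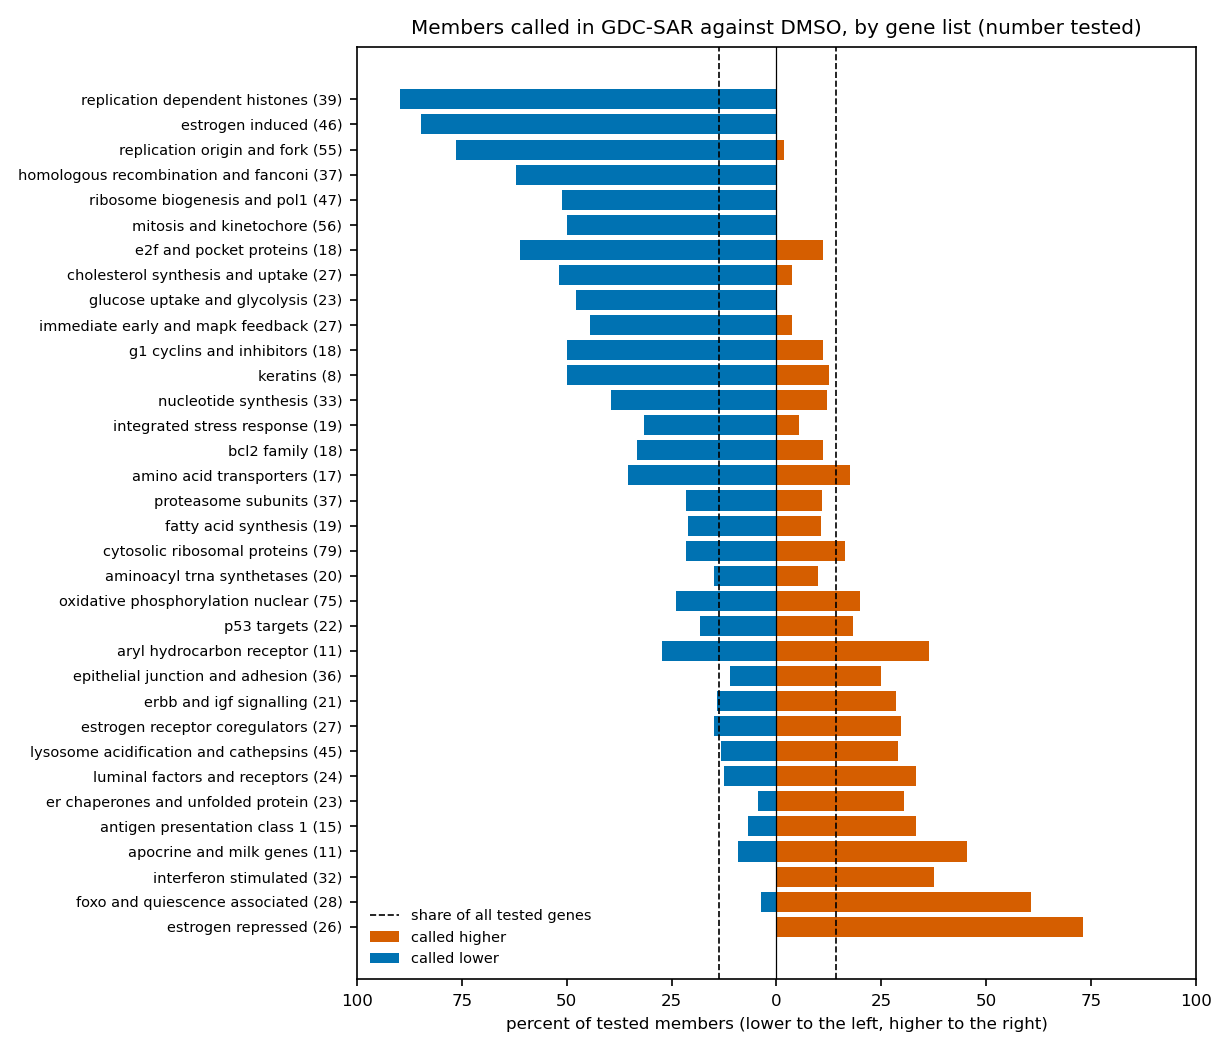
Share of tested members called lower (to the left, blue) and higher (to the right, orange) with GDC-SAR against DMSO in 34 gene lists, with the number tested after each name. Dashed lines mark the share of all tested genes called lower (13.8%) and higher (14.2%), and replication-dependent histones, with 35 of 39 lower, and estrogen-repressed genes, with 19 of 26 higher, stand at the ends.

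Genes that estradiol represses rose. Of 29 listed 26 were tested, 19 rose and none fell, with a median of 0.87 (composition fit 18 higher and 0 lower). ABCA4, a lipid transporter of the retina, was at 3.88, 5.17 and 6.54 TPM with DMSO and from 20.9 to 42.5 TPM with a median of 32.8 with GDC-SAR, and rose by 2.41 (SE 0.32, adjusted p = 1.10e-06). PIP, a secreted protein of apocrine cells, was at 40.4, 30.6 and 24.8 TPM and from 118 to 189.9 TPM with a median of 145, and rose by 2.21 (SE 0.20, adjusted p = 1.61e-09). BLNK, a signalling adaptor, was at 9.14, 9.95 and 11.3 TPM and from 34.9 to 44.0 TPM with a median of 40.5, and rose by 1.88 (SE 0.16, adjusted p = 2.69e-10). None of the 3 overlapped between groups. TP53INP1, an autophagy and stress gene, rose by 1.49 (SE 0.11, adjusted p = 8.44e-12). ERBB2, the HER2 receptor gene, rose by 0.78 (SE 0.17, adjusted p = 8.72e-04) from 29.8, 22.5 and 25.8 TPM to 37.8 to 60.9 TPM. The members with a loss in the composition fit were CYP1B1 (0.39, adjusted p = 0.0994) and ERBB3, the partner receptor of HER2 (0.52, adjusted p = 0.0526).

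Genes tied to FOXO factors and to the resting state overlapped with this list in part and rose in 17 of 28, with KLF6 falling (-0.56) and a median of 0.63 (composition fit 16 higher and 2 lower). After CCNG2 and RBL2 the largest rises were those of MXD4, a MAX partner that opposes MYC (1.18), HBP1, a repressor of cell cycle genes (1.16), and YPEL5 (1.01). CCNG2 was at 10.6, 10.9 and 13.1 TPM with DMSO and from 22.8 to 33.7 TPM with a median of 31.4 with GDC-SAR, with no overlap, and rose by 1.27 (SE 0.14, adjusted p = 3.00e-08). FOXO1, FOXO3 and FOXO4 themselves rose by 0.75, 0.54 and 0.64, and the kinase inhibitor gene CDKN1B, p27, was not called (-0.16, adjusted p = 0.392). The FOXO genes and CDKN1B were named after their values were seen.

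Luminal identity genes moved in both directions. Of 24 tested (27 listed) 8 rose and 3 fell (composition fit 7 higher and 2 lower). GATA3, the factor that keeps luminal cells luminal (chromosome 10, 8045378 to 8075203, plus strand), was at 1308, 981 and 1058 TPM with DMSO and from 3434 to 5254 TPM with a median of 5099 with GDC-SAR, and rose by 2.08 (SE 0.31, adjusted p = 9.20e-06). The composition fit put this rise at 1.09 (adjusted p = 3.70e-04). FOXA1 rose by 0.89 (SE 0.14, adjusted p = 2.31e-05, composition fit 0.51) and CDH1, which encodes E-cadherin, by 1.51 (SE 0.29, adjusted p = 2.14e-04, composition fit 0.56). KRT18, the luminal keratin, fell by 0.57 (SE 0.10, adjusted p = 1.31e-04), from 953 to 1028 to 642 to 708 TPM. GRHL2, an epithelial factor, fell by 1.5 (SE 0.36, adjusted p = 0.00221) with a call that the composition fit did not keep (-0.88, adjusted p = 0.14). Among 27 tested coregulators of the receptor (28 listed) 8 rose and 4 fell (composition fit 4 higher and 3 lower). CITED1, a coactivator that binds the receptor, was at 33.4, 30.9 and 14.5 TPM with DMSO and from 0.367 to 4.60 TPM with a median of 1.59 with GDC-SAR, and fell by 3.21 (SE 0.56, adjusted p = 6.94e-05). BCAS3 rose by 0.85 (SE 0.15, adjusted p = 5.34e-05) and NCOA3, the steroid receptor coactivator also called AIB1, by 0.83, the latter named after its value was seen.

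Of 27 tested immediate early and MAPK feedback genes (41 listed) 12 fell and 1 rose, with a median of -0.38 (composition fit 2 higher and 10 lower). Besides EGR3 and MYC, the mRNA decay factor gene ZFP36 fell by 1.39, the AP-1 subunit gene JUN fell by 1.27 (SE 0.12, adjusted p = 3.65e-09) and the stress-response gene IER3 fell by 1.25 (SE 0.11, adjusted p = 4.85e-10). JUN was at 11.3, 10 and 9.59 TPM with DMSO and 3.48 to 3.86 TPM with GDC-SAR. EGR1, the closest relative of EGR3 on the list, was not called (-0.16, adjusted p = 0.496). PHLDA1 rose against the others (0.93, SE 0.14, adjusted p = 1.10e-05). In the ERBB and insulin-like growth factor list 6 of 21 tested genes rose and 3 fell (34 listed, composition fit 5 higher and 1 lower). PIK3IP1 and PIK3R3, an inhibitor and a regulatory subunit of PI3-kinase, rose by 0.94 and 0.91 and the insulin receptor gene INSR by 0.59, while IGF1R was not called (-0.26, adjusted p = 0.26).

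Uptake and use of glucose and amino acids were described by their carriers and by glycolysis. SLC2A1, the glucose transporter GLUT1, was at 163, 172 and 149 TPM with DMSO and from 51.1 to 62.1 TPM with a median of 56.7 with GDC-SAR, and fell by 1.5 (SE 0.10, adjusted p = 4.05e-12). SLC7A5, the large neutral amino acid transporter LAT1, was at 96.8, 91.0 and 84.5 TPM and from 28.4 to 32.7 TPM with a median of 29.2, and fell by 1.58 (SE 0.12, adjusted p = 4.48e-11). Its partner chain SLC3A2 fell by 0.69 and the lactate dehydrogenase gene LDHA fell by 1.21 (SE 0.11, adjusted p = 1.17e-09). The whole glycolysis list held 11 falls and no rise in 23 tested genes, a count that was 6, 7 and 7 without DMSO replicates 1, 2 and 3, 4 with the 300 nM libraries alone and 6 in the composition fit, where 1 gene was higher. Among 17 tested amino acid transporters (20 listed) 6 fell and 3 rose (composition fit 2 higher and 5 lower), the rises being SLC38A1 (0.69), SLC7A8 (0.42) and SLC38A2 (0.59), of which the last lost its call in the composition fit (0.19, adjusted p = 0.41).

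Of 27 tested cholesterol genes 14 fell and 1 rose (28 listed, median -0.41, composition fit 0 higher and 8 lower). HMGCS1, which makes the HMG-CoA used by the pathway, was at 92.5, 106 and 92.1 TPM with DMSO and from 44.1 to 46.9 TPM with a median of 45.5 with GDC-SAR, and fell by 1.07 (SE 0.13, adjusted p = 2.43e-07). EBP, IDI1 and CYP51A1, enzymes further down, fell too (-1.05, -0.99 and -0.91), and SREBF2, whose product drives the pathway, was not called (0.16, adjusted p = 0.269). The fatty acid list lay near the shares of all tested genes. Of its 19 genes 4 fell and 2 rose (median 0.018, composition fit 1 higher and 2 lower), with FASN, the fatty acid synthase gene, falling (-1.12, SE 0.21, adjusted p = 1.40e-04) and HSD17B12 rising (0.81).

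Ribosome assembly fell in 24 of 47 tested genes with no rise (48 listed, median -0.46), and in 15 in the composition fit and 15 with the 300 nM libraries alone. DDX10, a nucleolar helicase, fell by 1.61 (SE 0.42, adjusted p = 0.00455) and BOP1, a large-subunit processing factor, fell by 1.10 (SE 0.23, adjusted p = 4.70e-04). Genes for ribosomal proteins split instead, 13 of 79 rising and 17 falling, and the composition fit called 5 higher and 11 lower. The falls numbered 9 to 11 without 300 nM replicate 2 or without any 1 of the DMSO libraries, and 21 rose and 24 fell when the 6 treated libraries were fitted as 1 group beside DMSO alone. That last fit called more genes of every kind, 4952 in all (2564 higher and 2388 lower) against 4040 in the main fit. RPL27A fell most (-1.42, SE 0.25, adjusted p = 8.92e-05). Short genes of this kind have many pseudogene copies, so single values are uncertain. Nuclear genes of oxidative phosphorylation also split, 15 of 75 higher and 18 lower (composition fit 7 higher and 7 lower), with 9 higher without DMSO replicate 2. Of 37 proteasome subunits 4 rose and 8 fell (composition fit 1 higher and 6 lower), with 0 and 2 rises without DMSO replicates 2 and 3.

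The next 3 lists are short, so each count rests on few genes. Rises among chaperone genes and falls in the integrated stress response exceeded the shares of all tested genes (14.2% and 13.8%). The aminoacyl-tRNA synthetases lay near those shares. Of 23 chaperone and unfolded protein genes 7 rose and 1, XBP1, fell (composition fit 5 higher and 1 lower). CALR, the lectin chaperone calreticulin, was at 278, 308 and 322 TPM with DMSO and from 614 to 735 TPM with a median of 643 with GDC-SAR, and rose by 1.12 (SE 0.11, adjusted p = 1.10e-08). HERPUD1, a component of protein disposal, rose by 0.74 and HSPA5, the chaperone BiP, by 0.48. In the integrated stress response 6 of 19 tested genes fell and 1 rose (22 listed, composition fit 1 higher and 7 lower), and 3 fell without DMSO replicate 2. The rise was DDIT4, an inhibitor of mTORC1 (1.05, SE 0.11, adjusted p = 4.07e-08), and ATF4, the factor that drives the response, was not called (-0.056, adjusted p = 0.778). Of 20 aminoacyl-tRNA synthetases 2 rose, QARS and DARS (1.15 and 0.96), and 3, IARS, FARSA and MARS, fell (-0.61, -0.59 and -0.42). The IARS call was lost without DMSO replicate 1 or 3 (adjusted p = 0.108 and 0.054) and that of MARS without DMSO replicate 1 or 2 or GDC-SAR 30 nM replicate 2 (adjusted p = 0.0693, 0.121 and 0.0516). The composition fit kept the rises and called 3 other members lower in place of these 3.

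Heat shock and ligand-sensor genes of the aryl hydrocarbon receptor list split, 4 of 11 tested rising and 3 falling (15 listed, composition fit 2 higher and 2 lower). CYP1A1, the receptor's best-known target and a xenobiotic-metabolising enzyme, was at 0.229, 0.423 and 0.297 TPM with DMSO, near the lower end of the table, and from 4.76 to 6.71 TPM with a median of 5.90 with GDC-SAR. All 6 treated libraries lay above the controls, and the gene rose by 2.38 (SE 0.19, adjusted p = 8.22e-11). AHR itself (0.072, adjusted p = 0.767) and TIPARP, another target (-0.16, adjusted p = 0.285), were not called. The chaperone gene HSP90AA1 fell by 2.02 (SE 0.40, adjusted p = 3.09e-04) in the plain fit and was not called in the composition fit (-0.89, adjusted p = 0.0612), whereas its co-chaperone PTGES3 fell in both (-1.27 and -0.87).

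Interferon-stimulated genes rose in 12 of 32 tested with no fall (41 listed, median 0.58). This count depended on the libraries and on composition. It was 5 without DMSO replicate 2, 6 with the 300 nM libraries alone and 4 in the composition fit. IRF9, the DNA-binding part of the type I interferon complex, was at 18.8, 25.5 and 32.8 TPM with DMSO and from 51.0 to 88.5 TPM with a median of 64.7 with GDC-SAR, and rose by 1.33 (SE 0.22, adjusted p = 4.19e-05, composition fit 1.56). OAS1, a sensor of double-stranded RNA, rose by 1.59 and ISG15, a ubiquitin-like modifier, by 1.41, and both lost their calls in the composition fit (1.04, adjusted p = 0.156, and 1.12, adjusted p = 0.0991). In class I antigen presentation 5 of 15 rose and 1 fell, with 3 rises without DMSO replicate 2 and 3 higher and 0 lower in the composition fit. ERAP1, which trims peptides, rose by 1.46 (SE 0.26, adjusted p = 1.04e-04), and HLA-B rose by 1.29 with a call lost in the composition fit (0.48, adjusted p = 0.111).

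Targets of p53 lay near the shares of all tested genes, with 4 of 22 rising and 4 falling (24 listed, composition fit 2 higher and 2 lower). TP53INP1 led the rises and CDKN1A the falls, with AEN, a nuclease gene, also falling (-1.23), and MDM2, the p53 ligase, was not called (-0.054, adjusted p = 0.869). Of 18 tested BCL2-family genes (22 listed) 2 rose and 6 fell (composition fit 1 higher and 3 lower). PMAIP1, the death-promoting member NOXA, was at 3.87, 2.31 and 2.87 TPM with DMSO and 0.576 to 1.24 TPM with GDC-SAR, and fell by 1.10 (SE 0.22, adjusted p = 2.84e-04). BOK fell by 0.95, and BCL2, a survival gene and estrogen target, was not called (-0.22, adjusted p = 0.106).

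Cell contact and organelle lists held more rises than falls. Of 36 tested junction and adhesion genes (40 listed) 9 rose and 4 fell (composition fit 4 higher and 3 lower). After CDH1, the E-cadherin partner p120, CTNND1, rose by 0.71 (SE 0.088, adjusted p = 3.89e-07) and the integrin gene ITGB4 by 0.65, and ITGB5 fell by 0.65. Of 45 tested lysosomal genes (46 listed) 13 rose and 6 fell (composition fit 7 higher and 1 lower), with 3 falls without DMSO replicate 1. ATP6V1H, a subunit of the proton pump, rose by 1.46 (SE 0.24, adjusted p = 2.69e-05) and the cathepsin gene CTSO by 1.02. CTSD, an estrogen-induced cathepsin, fell by 0.83 with a call that was lost in the composition fit (-0.46, adjusted p = 0.0519).

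Differentiation markers moved as single genes. Of 8 tested keratins (19 listed) 4 fell and 1, KRT7 of simple epithelia, rose (0.87, SE 0.17, adjusted p = 3.15e-04), and the composition fit called 1 higher and 3 lower. KRT8 was not called (-0.043, adjusted p = 0.839). Among 11 tested apocrine and milk genes (23 listed) 5 rose and 1 fell, 3 rose without DMSO replicate 3, and the composition fit called 3 higher and 2 lower. DHRS2, a reductase gene, fell (-0.93, SE 0.12, adjusted p = 5.26e-07). Neither of the 2 tested markers of basal and mesenchymal cells was called (15 listed). Of 2 tested stromal and immune markers (20 listed) COL1A1 rose from 7.32 to 9.21 to 10.5 to 17.8 TPM (0.67, SE 0.18, adjusted p = 0.00629), not called in the composition fit (0.24, adjusted p = 0.397).

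Single genes outside the lists were among the largest changes. RTN2, a reticulon of the endoplasmic reticulum (chromosome 19, 45485289 to 45497061, minus strand), showed the largest rise of the genes that met the naming rule. It was at 84.6, 50 and 44.9 TPM with DMSO and from 276 to 394 TPM with a median of 341 with GDC-SAR, and rose by 2.50 (SE 0.24, adjusted p = 4.00e-09). PPFIBP2, a liprin, went from 21.3, 16 and 33.9 TPM to 77.5 to 108 TPM (2.02, SE 0.19, adjusted p = 1.84e-09). S100P, a calcium-binding protein gene, rose by 2.09 and CA11, of the carbonic anhydrase family, by 1.89. These 4 genes were picked among those whose groups did not overlap, so the lack of overlap is no separate result. On the other side ID4, an inhibitor of helix-loop-helix factors (chromosome 6, 19837386 to 19840684, plus strand), was at 13.9, 14.1 and 13.6 TPM with DMSO and from 0.369 to 1.30 TPM with a median of 0.905 with GDC-SAR, and fell by 3.0 (SE 0.23, adjusted p = 2.77e-11). PTGES, a prostaglandin E synthase gene, fell by 2.65 (SE 0.15, adjusted p = 8.20e-14) from 97.7, 72.8 and 65.8 TPM to 9.93 to 14.1 TPM. The protease inhibitor gene SERPINA3 fell by 2.61 and RBM24, an RNA-binding protein gene, fell by 2.52. RN7SL1, the RNA of the signal recognition particle, fell by 2.92 (SE 0.78, adjusted p = 0.00545).

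**Figure D3:**
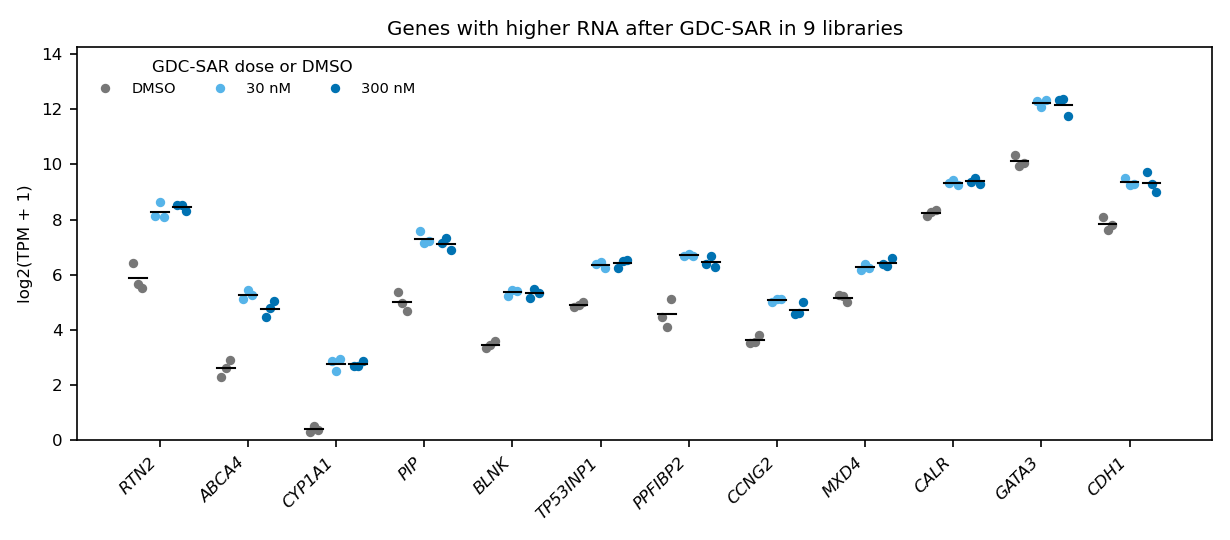
Levels of 12 genes that rose, as log2(TPM + 1) in each of the 9 libraries, with DMSO in grey and the 30 and 300 nM GDC-SAR libraries in light and dark blue. Points are libraries and bars are group means, and no GDC-SAR point of these genes reaches down to a DMSO point (GATA3 981 to 1308 TPM with DMSO and 3434 to 5254 TPM with GDC-SAR).

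Composition was followed gene by gene. Of 226 genes named by rule outside the ligand pairs, with RN7SL1 left out, 148 passed the threshold in the composition fit. ESR1 and MKI67 were among the 226 though not called in the plain fit, and MKI67 was among the 148. The slope on RN7SL1 was itself called for 3964 genes (27.5%). The median of the estrogen-induced list went from -1.16 to -1.25 and that of the estrogen-repressed list from 0.87 to 0.71. Single members moved to different extents, with IL20 at -4.42, EGR3 at -4.22, GREB1 at -3.10, PGR at -3.16 and CCND1 at -1.30 in that fit. KRT13 was larger there (-4.10), and among the rises so were TP53INP1 (1.69), CCNG2 (1.51) and ERBB2 (1.09). The rises of GATA3 and CDH1 were smaller by more than 1.5 times (1.09 and 0.56). By transcript length the median differences in the plain fit were 0.19 for genes up to 1000 bases of exon, -0.06 between 2000 and 4000 and 0.12 above 8000, over the 83.9% of tested genes with a length. In the composition fit they were 0.070, -0.073 and 0.056.

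**Figure D4:**
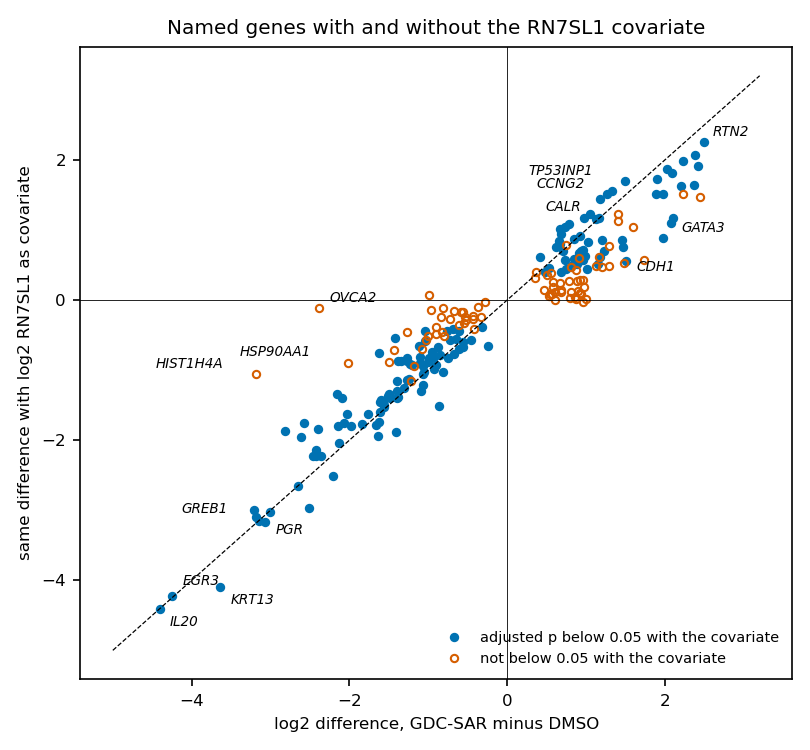
The log2 difference of GDC-SAR from DMSO in the plain fit (horizontal axis) and with log2 RN7SL1 as a covariate (vertical axis) for the 226 named genes, 1 point each. Filled points, 148 in number, have an adjusted p below 0.05 with the covariate, whether or not they were called without it. The dashed line marks equal values, and GREB1 (-3.18 and -3.10) lies close to it while GATA3 (2.08 and 1.09) lies below.

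Both doses were compared with DMSO and with each other. Against DMSO 3247 genes were called at 30 nM (22.5%) and 2925 at 300 nM (20.3%). Between 300 and 30 nM no gene was called by limma (0%). Of the 14404 tested genes 360 had an unadjusted limma p below 0.05. That share is smaller than 0.05, the share to be met if no gene differed. Without the filter on low values 43 genes were called. IL20 averaged 3.04 ± 1.38 TPM at 30 nM and 1.70 ± 0.141 at 300 nM (SD, n = 3 each), GREB1 1.11 ± 0.348 and 1.52 ± 0.529, PGR 3.17 ± 0.320 and 3.45 ± 0.789, CCND1 98.7 ± 9.69 and 102.1 ± 9.75, and E2F1 5.60 ± 0.596 and 5.4 ± 0.924. None of these 5 genes differed between doses by more than its spread allowed the test to call. A p that misses the threshold does not show that the doses act alike.

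GDC-SAR was set beside its parents and the other hybrid at matched doses and time, 6 libraries against 6, in 3 pairs with p-values adjusted over all genes and the 3 pairs together. GDC-SAR and GDC-0810 share the scaffold and differ in the side chain, and 373 genes differed between them (2.59%), 176 higher with GDC-SAR (1.22%) and 197 lower (1.37%). With p-values adjusted within this pair alone 530 were called, and with the RN7SL1 covariate 557, 296 higher and 261 lower. Genes of the estrogen-induced list were lower with GDC-SAR in 24 of 46 and higher in 1, CA12 (0.60), with a median of -0.62 against 0.022 over all genes. Replication genes were lower in 18 of 55 and histones in 21 of 39, with none higher, and estrogen-repressed genes were higher in 5 of 26 with none lower. No mitosis gene of 56 was called in this pair.

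KRT13 separated GDC-SAR from GDC-0810 most among coding genes. It averaged 3.18 ± 1.86 TPM against 61.6 ± 19.9 (SD, n = 6 each), a difference of -3.96 (95% interval -4.47 to -3.46, adjusted p = 4.11e-12), and 46.8 TPM with DMSO. DSCAM-AS1 averaged 26.9 ± 2.07 TPM against 117 ± 14.2, a difference of -2.08 (95% interval -2.22 to -1.94, adjusted p = 4.33e-19), where DMSO stood at 123, 112 and 111 TPM. The GDC-0810 libraries lay on both sides of the DMSO values, at 95.3 to 132 TPM for DSCAM-AS1 and 38.3 to 86.7 TPM for KRT13. For KRT13 every GDC-0810 library at 30 nM was above the 42.7 to 52.0 TPM of DMSO. The GDC-SAR libraries lay far below DMSO for both genes. GREB1 differed by -1.81 (95% interval -2.18 to -1.44, adjusted p = 2.09e-07), IL17RB by -1.89, PGR by -1.23 (95% interval -1.53 to -0.93, adjusted p = 3.35e-06) and CCND1 by -0.78 (95% interval -1.0 to -0.56, adjusted p = 4.62e-05). E2F1 differed by -0.87 and the LAT1 gene SLC7A5 by -1.30 (95% interval -1.5 to -1.09, adjusted p = 6.18e-10), all lower with GDC-SAR. Higher with GDC-SAR were SLC22A4, an organic cation transporter (1.36, 95% interval 1.04 to 1.68, adjusted p = 2.90e-06), PPFIBP2 (1.27), C10ORF10 (1.36), HAS3, a hyaluronan synthase (1.0), and CYP1A1 (0.74).

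Other targets did not separate this pair. TFF1 differed by -0.24 (95% interval -0.52 to 0.045, adjusted p = 0.604), MYC by -0.072 (95% interval -0.27 to 0.12, adjusted p = 0.897), ESR1 by 0.082 (95% interval -0.15 to 0.31, adjusted p = 0.9) and GATA3 by 0.43 (95% interval -0.095 to 0.95, adjusted p = 0.622). These intervals include 0 and still allow differences of the size of their bounds. RN7SL1 itself differed by 0.40 (95% interval -0.90 to 1.70, adjusted p = 0.922) and was not called.

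GDC-SAR and SAR439859 share the side chain and differ in the scaffold, and 106 genes differed between them (0.736%), 55 higher with GDC-SAR (0.382%) and 51 lower (0.354%). With p-values adjusted within this pair alone 51 were called, and with the RN7SL1 covariate 256. With median-of-ratios scaling 186 differed and the share that was higher went from 51.9% to 68.3%. The count depended on single SAR439859 libraries. Without SAR439859 30 nM replicate 1 the count was 195, with 156 higher and 39 lower, and without replicate 2 it was 250, with 95 higher and 155 lower, so the balance of directions turned on these libraries. It was 86 without replicate 3. Of these, replicate 1 lists MALAT1 at 0 and replicate 3 lists 15818 genes above 0, the fewest in the series. The count was 63, 56 and 60 without GDC-SAR 30 nM replicate 1 or 300 nM replicates 1 and 2, and 13 when only these 12 libraries were fitted. NPY1R, a neuropeptide Y receptor and estrogen target, averaged 6.03 ± 1.98 TPM against 2.28 ± 0.746 and differed by 1.08 (95% interval 0.78 to 1.39, adjusted p = 4.18e-05). MYBL1 averaged 15.4 ± 0.972 TPM against 9.10 ± 1.31 and differed by 0.71 (95% interval 0.51 to 0.91, adjusted p = 4.26e-05), both higher with GDC-SAR and with no overlap. In the estrogen-induced list 6 of 46 genes were higher with GDC-SAR and none lower, with a median of 0.21. TPD52L1 (0.74), STC1 (0.51), CXCL14, a chemokine (0.48), ELOVL2 (0.45) and IGFBP4 (0.45) were the others beside MYBL1.

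Lower with GDC-SAR than with SAR439859 were CYP1A1, whose libraries overlapped (5.86 ± 0.739 TPM against 9.71 ± 2.35, -0.62 (95% interval -0.93 to -0.30, adjusted p = 0.0384)), SNORD3A, a small nucleolar RNA (-0.79), and PSME4, a proteasome activator (-0.55). PGR differed by 0.43 (95% interval 0.14 to 0.73, adjusted p = 0.193) and CCND1 by 0.34 (95% interval 0.12 to 0.57, adjusted p = 0.151), with intervals above 0 and adjusted p-values over the threshold. GREB1 differed by -0.089 (95% interval -0.46 to 0.28, adjusted p = 0.944) and ESR1 by -0.093 (95% interval -0.32 to 0.14, adjusted p = 0.879).

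GDC-SAR and AZD-SAR, hybrids with the same side chain on different scaffolds, differed at 5 genes (0.0347%). With p-values adjusted within this pair alone none was called, so the 5 calls rest on the joint adjustment over the pairs. Of the 14404 tested genes 453 had an unadjusted limma p below 0.05. That share is smaller than 0.05, the share to be met if no gene differed. The 5 genes, of which only ZNF605 met the naming rule, were ZNF510 (0.72) and ZNF605 (0.62), zinc-finger genes, and SPAG4 (0.95), higher with GDC-SAR (0.0208%), and MAP1S (-0.47) and SSFA2 (-0.41), lower (0.0139%). AZD-SAR 300 nM replicate 2 lists MALAT1 at 0, and without it 3 genes were called. The count was 2 without AZD-SAR 30 nM replicate 2, 9 without AZD-SAR 300 nM replicate 1 and 1 without GDC-SAR 300 nM replicate 2. PGR differed by 0.033 (95% interval -0.26 to 0.33, adjusted p = 0.978), GREB1 by 0.11 (95% interval -0.26 to 0.48, adjusted p = 0.921), CCND1 by 0.11 (95% interval -0.11 to 0.33, adjusted p = 0.834) and KRT13 by 0.064 (95% interval -0.44 to 0.57, adjusted p = 0.975). IL20, with the widest gap of these target genes, differed by 0.39 (95% interval -0.070 to 0.86, adjusted p = 0.599). No member of the estrogen-induced, replication, histone or mitosis lists was called in this pair.

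**Figure D5:**
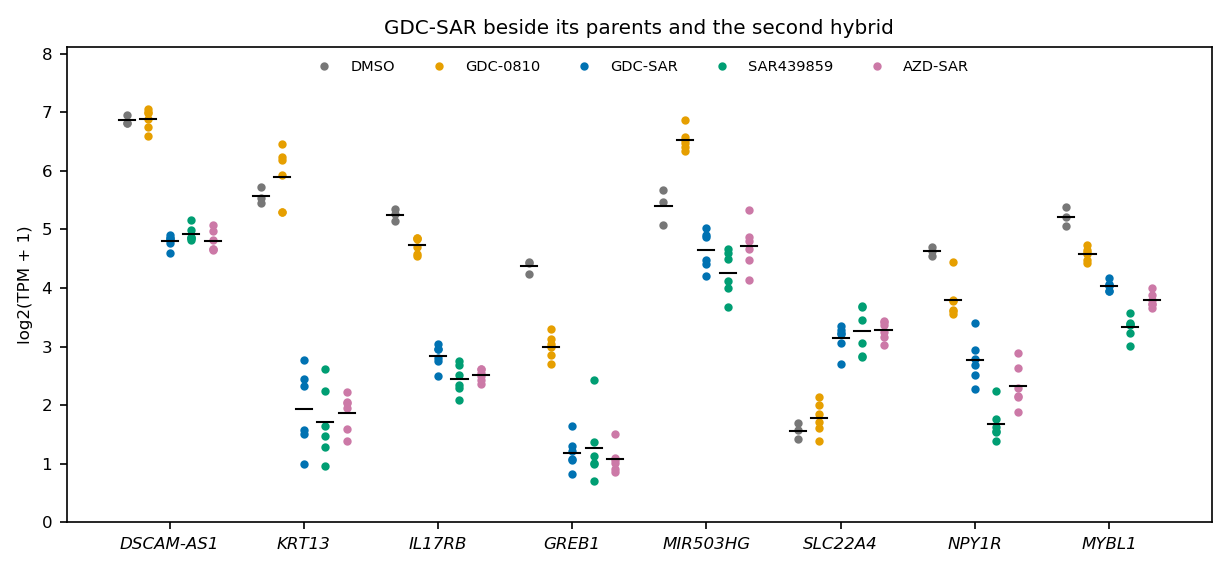
Levels of 8 genes as log2(TPM + 1) in the 3 DMSO libraries and the 6 libraries each of GDC-0810, GDC-SAR, SAR439859 and AZD-SAR, both doses together. Points are libraries and bars are group means. The GDC-0810 points of DSCAM-AS1 and KRT13 lie on both sides of the DMSO points, most of them above DMSO for KRT13. Those of GDC-SAR lie below DMSO, with SAR439859 and AZD-SAR (26.9 TPM against 117 TPM with GDC-0810 for DSCAM-AS1).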

How the data were processed

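The values were deposited by the authors as TPM per gene symbol, 1 column for each of the 39 libraries, with 46706 symbols. The submitters' processing notes name STAR as the aligner and GRCh38 as the build. The aligner's version, the counting step and its annotation were not given in the sources used here. TPM keeps no read depth, so the depth of the libraries is unknown and no counting interval is given. TPM is also a share of each library, so an abundant RNA that differs between libraries moves every other gene.

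Groups were taken from the labels. Symbols with a mean of 1 TPM or more over the 39 libraries (14404) were tested as log2(TPM + 1) with limma 3.58.1 in R 4.3.3, with 13 group means, moderation with an intensity trend and Benjamini-Hochberg adjustment, called at 0.05. The contrast was the mean of both dose groups minus DMSO. Every adjusted p comes from limma, and those of the 3 ligand pairs were adjusted over all genes and pairs jointly. Alternatives were a pseudocount of 0.1, no filter, median-of-ratios scaling, only the libraries compared, 1 mean for both doses, single doses, protein-coding genes only and each library left out. The RN7SL1 covariate and a rescaling over protein-coding genes were added after seeing the data.

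The genes and the 36 gene lists were chosen with earlier results of these data known. Named genes were 12 set ones, the 15 largest changes each way with 5 TPM or more in the higher group and no overlap, up to 5 called members and the opposite movers of each list, and up to 6 genes each way in each pair. Others, such as the MCM helicase genes, the FOXO genes, members given as not called and a few further list members, were named after their values were seen. A few genes that met the rule are not reported here. Coordinates and lengths come from GENCODE release 29, which matched 83.9% of tested symbols, and promoter windows come from RefSeq, which held 183 of 247 named genes. Figures were drawn with matplotlib 3.10.9 in Python 3.11.15.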

Additional observations from a re-analysis of the deposited data

Results flagged for a closer look

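Of 40 genes checked for a library far from the other GDC-SAR libraries, 2 had one. Chance alone sets such a library apart in about 1 of 20 groups. MYC was at 26.6 TPM in GDC-SAR 300 nM replicate 3, where the 6 libraries had a lowest value of 21.2 TPM and a median of 22.5 TPM, and the gap to the nearest library was 0.685 of the whole range, more than the limit for 6 samples. RN7SL1 was at 40311 TPM in the same library, with a lowest value of 7878 TPM and a median of 13174 TPM, and a gap of 0.799 of the range.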

How the results depend on the processing

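The count against DMSO (4040) was 2232 with the RN7SL1 covariate and 2699 to 4052 when 1 library was left out, lowest without a DMSO library. It stayed within 1.5 times under the other pseudocount, filter, scaling, dose and gene-class settings. The covariate fit shared 1750 calls in the same direction, lost 2290 and gained 482. Of 247 named genes, 238 were called, and 204 kept direction and call whichever library was left out, while 41 lost the call in at least 1 such fit. The covariate reversed NDUFC2 from 0.96 to -0.034 and ATP6V0B from -1.0 to 0.070. The cause was not tested. Between doses, with 0 calls, 43 genes were called without the filter, 1 with only the libraries compared, and 0 to 1 with 1 library left out. The GDC-0810 count (373) was 210 with only the libraries compared, and 290 to 351 with 1 library left out. The SAR439859 count (106) was 186 with median-of-ratios scaling, 13 with only the libraries compared, 256 with the covariate and 56 to 250 with 1 library left out. The AZD-SAR count (5) was 22 without the filter, 8 with median-of-ratios scaling, 3 with only the libraries compared, 14 with the covariate and 1 to 9 with 1 library left out. The fits on only the libraries compared hold fewer samples, and for the rest the cause was not tested. No paired analysis was possible because the labels carry no replicate numbers shared between groups. TPM gives no depth, so low genes could not be judged by their counts.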
